A study of Mus musculus with 8 samples.

Results

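The genes of prostaglandin synthesis and prostanoid reception were followed in mouse dorsal root ganglia through carrageenan inflammation of the paw. The 10 genes were taken by name from the 24421 genes of the counts table: 5 receptors (Ptgir, Ptger1, Ptger2, Ptger3, Ptger4) and 5 synthases (Ptgs1, Ptgs2, Ptges, Ptgds, Ptgis). The set was chosen by function, but with the pattern of Ptgir in these libraries already known. The values of Ptgir are therefore given as a description without a p-value. All 10 genes passed the filter on low counts, which left 17328 genes for the tests.

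RNA was sequenced from whole L3 to L5 ganglia of the left side of wild-type (WT) C57BL/6J mice aged 8 weeks per the labels. The methods of the study say male mice and give an age range that begins at 8 weeks. Mice at 1d, 3d and 30d had received 20 µL of 1% carrageenan, a seaweed polysaccharide that inflames tissue, into the sole of the left hind paw 1, 3 or 30 days earlier, and the 0d mice were naive and uninjected. Each of the 4 groups had 2 libraries, 8 in all, and each library was RNA pooled from 2 to 3 mice, so that the p-values measure the spread between such pools. No group was injected with vehicle, so that the injection and the carrageenan cannot be told apart.

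The libraries held between 44123208 and 73580338 counts. The labels name the cells as neurons, but the ganglia were not sorted. The summed level of 14 sensory neuron markers lay between 12374 and 13605 CPM (counts scaled to the same library total). Those of 6 Schwann cell markers lay between 5719.6 and 11152 CPM, those of 5 satellite glia markers between 2503 and 3007 CPM, and those of 8 macrophage markers between 70.8 and 90.7 CPM. In such tissue, fewer cells of a type and less RNA per cell cannot be told apart. The first 30d library stood apart: it had the lowest Schwann cell sum, and its red blood cell sum was 515 CPM against 141 to 282 CPM in the other libraries. Its neutrophil sum was 183 CPM against 36.6 to 118 CPM elsewhere. The red blood cell markers Hba-a1 and Hba-a2 had the same level in every library, so that shared reads may be repeated in their sum. The first 0d library, in every comparison against 0d, stood apart as well. It had the highest Schwann cell and skeletal muscle sums, the lowest red blood cell and neutrophil sums, and a fibroblast sum of 1615 CPM against 1110.4 to 1233 CPM elsewhere.

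Prostanoids are made from arachidonic acid. The cyclooxygenases Ptgs1 and Ptgs2 turn it into prostaglandin H2, and terminal synthases turn this into prostaglandin E2, D2 or I2 (prostacyclin). These bind G protein-coupled receptors, and in sensory neurons the prostaglandin E2 and prostacyclin receptors are known for lowering the threshold of nociceptors in inflamed tissue.

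Ptgir lies on chromosome 7 (mm10, 16906490 to 16910905, plus strand), with 3334 exon bases in 2 exon blocks, and no exon of another annotated gene overlaps it. The 250 bases before the RefSeq start of Ptgir (GRCm38.p6, chr7:16906240-16906489, plus strand) are shown because Ptgir is the only member called between time points. Those of Ptgds (chr2:25469750-25469999, minus strand) are shown because it is the most abundant member and the one that varied most among the 9 with counts in every library. Capitals mark the GC box GGGCGG.

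Ptgir: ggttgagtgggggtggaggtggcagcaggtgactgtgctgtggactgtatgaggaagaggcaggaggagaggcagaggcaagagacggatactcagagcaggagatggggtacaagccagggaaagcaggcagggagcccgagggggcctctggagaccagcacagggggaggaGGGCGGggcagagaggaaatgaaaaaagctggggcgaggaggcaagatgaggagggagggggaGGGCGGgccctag

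Ptgds: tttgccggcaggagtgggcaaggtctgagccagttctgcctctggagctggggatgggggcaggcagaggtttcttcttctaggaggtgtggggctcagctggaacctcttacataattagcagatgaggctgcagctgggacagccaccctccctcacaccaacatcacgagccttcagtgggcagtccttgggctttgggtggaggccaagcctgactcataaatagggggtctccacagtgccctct

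The Ptgir window held GGGCGG on the plus strand from 76 to 71 and from 13 to 8 bases before the start. On either strand this motif, chosen after the sequences were seen, was in 32.7% of 32851 RefSeq windows of the same length and in 5 of the 8 windows found for the members (Ptgir, Ptger3, Ptger4, Ptgs2 and Ptges). Ptgds had none. The CCAAT box CCAAT, chosen in the same way, was in 33.8% of all windows and in those of Ptger2 and Ptger4. GC content was 63.6% in the Ptgir window and 58.4% in that of Ptgds. The cAMP response element TGACGTCA, its shorter form TGACG, the interferon-stimulated element GAAANNGAAA, the gamma-activated site TTCNNNGAA, the TATA box TATAAA and the E-box CACGTG were also searched on both strands. They were in 1.55%, 17.8%, 2.98%, 7.02%, 12.4% and 6.02% of all windows. None of these 6 was in the windows of the 8 members that matched the table, Ptger1 and Ptgis not being among those 8. For Ptgs2 the RefSeq start (150100031) lies before the start in the counts table (150100124). The same holds for Ptger3 (157566876 against 157566892). The bases between the 2 starts of these genes were not searched, so the absence holds for the windows only. The short form of the cAMP response element lies within the long one.

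Per exon length, the members spanned several orders of magnitude. RPKM (CPM per kilobase of exon) was used for every comparison of levels between genes. At 0d, Ptgds, which makes prostaglandin D2 and is a secreted lipocalin as well, had the highest level of the members with 319 ± 150 RPKM (SD, n = 2). The receptors Ptger1 and Ptgir followed with 19.4 ± 0.123 and 18.7 ± 0.228 RPKM, Ptger3 with 11.3 ± 2.7 RPKM and Ptger4 with 5.27 ± 0.410 RPKM. Next came the prostaglandin E synthase Ptges with 4.08 ± 0.510 RPKM and the prostacyclin synthase Ptgis with 2.09 ± 0.282 RPKM. The constitutive cyclooxygenase Ptgs1 had 0.858 ± 0.167 RPKM, Ptger2 0.420 ± 0.00542 RPKM and the inducible cyclooxygenase Ptgs2 0.0519 ± 0.0233 RPKM.

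Over all 8 libraries, 3 neighbours in this order overlapped, namely Ptger1 with Ptgir, Ptger4 with Ptges, and Ptges with Ptgis. Among the 17328 genes tested, the 0d level of Ptgds was at percentile 99.3, that of Ptger1 at 76.4, that of Ptgir at 75.7, and that of Ptgs2 at 1.96. In RPKM, 4 of the 5 receptors thus had more RNA than either cyclooxygenase, Ptger2 being below Ptgs1.

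**Figure D1:**
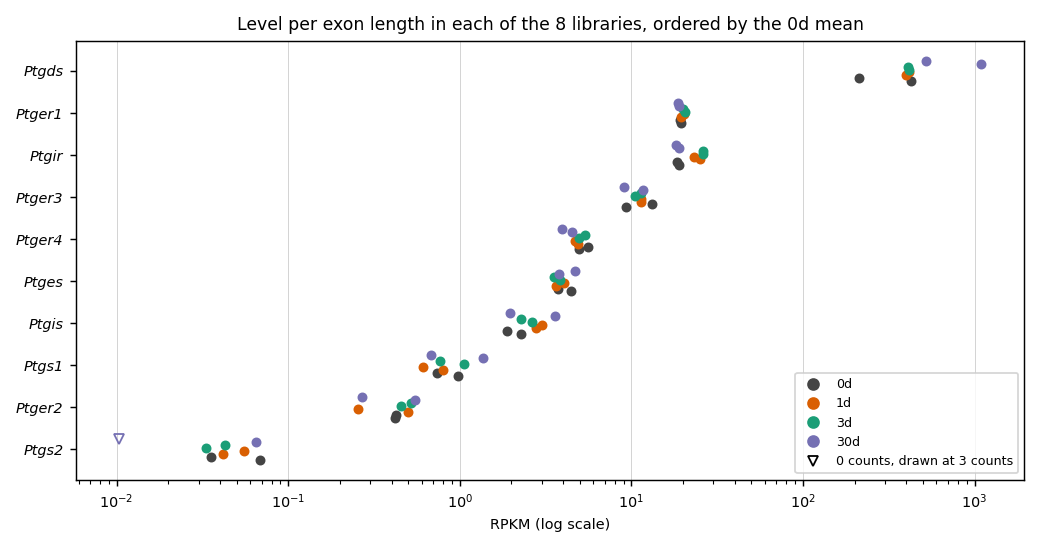
RPKM (log axis) of each of the 10 genes in each of the 8 libraries, ordered by the 0d mean, with a colour for each time point; the open triangle is the second 30d library for Ptgs2, which had 0 counts and is drawn at 3 counts. The ranges of Ptger1 and Ptgir overlap, and Ptgs2 is the lowest gene in every library.

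Ptgir, the prostacyclin receptor, which couples mainly to Gs and adenylyl cyclase, was higher at 1d and 3d than at 0d and back near the naive level at 30d. Its level was 62.9 and 61.8 CPM in the 0d libraries, 83.8 and 77.2 CPM at 1d, 87.2 and 87.1 CPM at 3d, and 63.3 and 60.6 CPM at 30d. All 4 libraries of 1d and 3d lay above all 4 libraries of 0d and 30d. How many of all genes have this separation was not counted. The fitted log2 fold change (log2FC) was 0.37 (SE 0.06, 95% interval 0.25 to 0.49, 1.29-fold) for 1d against 0d. It was 0.48 (SE 0.06, 0.37 to 0.60, 1.40-fold) for 3d against 0d. At 30d it was -0.01 (SE 0.06, -0.13 to 0.11) against 0d and -0.49 (SE 0.06, -0.61 to -0.37) against 3d. Between 1d and 3d it was 0.12 (SE 0.06, -0.00 to 0.23). Without the first 0d library, log2FC was 0.38 for 1d and 0.50 for 3d against 0d. The sum of the 14 sensory neuron markers was also highest at 3d and lowest at 30d, with 12748 and 12851 CPM at 0d, 12822 and 13266 CPM at 1d, 13605 and 13432 CPM at 3d, and 12374 and 12476 CPM at 30d. Of these markers, 8 had their highest mean at 3d. The others did not: Rbfox3 and Avil were highest at 30d, Nefh at 0d, and Isl1, Prph and Mrgprd at 1d. Mrgprd had its lowest mean at 3d (166 CPM against 174 CPM at 0d). Only 1 of the 14, the nociceptor sodium channel gene Scn10a, had the same separation as Ptgir. Its level was 1020 and 1082 CPM at 0d, 1175 and 1138 CPM at 1d, 1233 and 1216 CPM at 3d, and 1131 and 1061 CPM at 30d. Calca, which encodes the neuropeptide CGRP, had a log2FC of 0.32 for 3d against 0d (adjusted p = 0.0237, edgeR) and -0.43 for 30d against 3d (adjusted p = 0.00201, edgeR). Scn10a and Calca are named here after their values were seen. No other marker list held a gene with the separation of Ptgir, and the part of neurons in the level of Ptgir was not tested. Comparisons against 0d share the 0d libraries, and those against 3d share the 3d libraries.

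Differential expression was called at an adjusted p under 0.05 over all 17328 genes (edgeR quasi-likelihood test, Benjamini-Hochberg adjustment). Of the 10 members, 1 was called for 1d against 0d, where 0.346% of all genes were called. Likewise 1 was called for 3d against 0d (0.219% of all genes) and 1 for 30d against 3d (0.935%). None was called for 30d against 0d (0.0231%) or for 3d against 1d (0.289%), and 1 was called for any difference among the 4 time points (1.02%). The called member was Ptgir each time, and since it was chosen with these calls known, nothing is read from those counts. The call for 1d against 0d was absent without the first 1d library (log2FC 0.31). Without the first or the second 3d library, the call for 3d against 0d was absent too (log2FC 0.48 and 0.49).

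**Figure D2:**
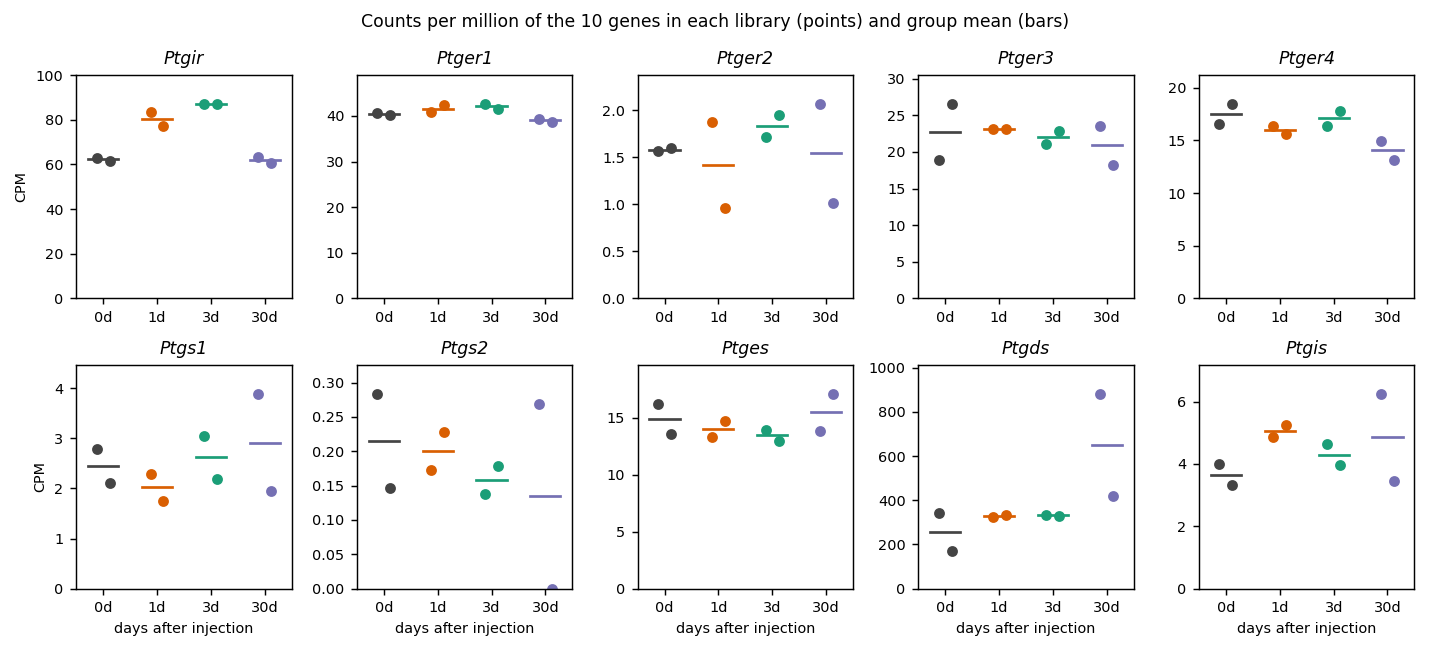
CPM of each gene (vertical axis from 0, own scale for each gene) against the time point; points are libraries and bars are the means of 2 libraries. For Ptgir the 1d and 3d libraries sit between 77.2 and 87.2 CPM and the others between 60.6 and 63.3 CPM; the points of Ptgds, Ptgs1 and Ptgis at 30d are far apart.

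As shares, the same Ptgir values read as follows, with no test. Of the summed RPKM of the 5 receptors, Ptgir held 35.5 and 32.5% in the 0d libraries. At 1d its share was 40.8 and 38.6%, at 3d it was 41.9 and 41.3%, and at 30d it was 34.8 and 36.3%. Ptger1 held 31.5 to 37.1% and Ptger2 at most 1.01% in the 8 libraries. The share of Ptgir was higher than that of Ptger1 in the 4 libraries of 1d and 3d and in the first 30d library (34.8 against 34.6%), and lower in both 0d libraries and the second 30d library. The level of Ptger1 is itself uncertain. Of the genes that flank Ptgir, Calm3, a calmodulin gene, lay between 1249.6 and 1397 CPM. Gng8, a G protein gamma subunit gene, had 13.2 and 13.7 CPM at 0d, 14.4 and 14.2 CPM at 1d, 15.4 and 16.9 CPM at 3d, and 9.85 and 14.8 CPM at 30d. Like Ptgir, it was highest in the 3d libraries, and its range was wider, 1.71-fold against 1.44-fold.

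The 5 tested genes whose log2 CPM (prior count 2), centred on each gene's mean, was nearest to that of Ptgir over the 8 libraries were Galnt16, Tmem100, Ptpn9, H2-T9 and H2-T22. Their root mean square differences from Ptgir were 0.066, 0.077, 0.081, 0.082 and 0.083 log2 units, against a median of 0.25 over the genes tested. These 5 genes were picked for this likeness, so that their levels are a description. Galnt16, a glycosyltransferase gene, had 32.8 and 29.2 CPM at 0d, 37.3 and 35.0 CPM at 1d, 40.2 and 41.2 CPM at 3d, and 29.6 CPM in both 30d libraries. Ptpn9, a tyrosine phosphatase gene, had 93.1 and 104 CPM at 0d, 116 and 118 CPM at 1d, 128 and 126 CPM at 3d, and 101 and 92.9 CPM at 30d. The MHC class I genes H2-T9 and H2-T22 had nearly the same counts in every library, and may share reads.

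**Figure D3:**
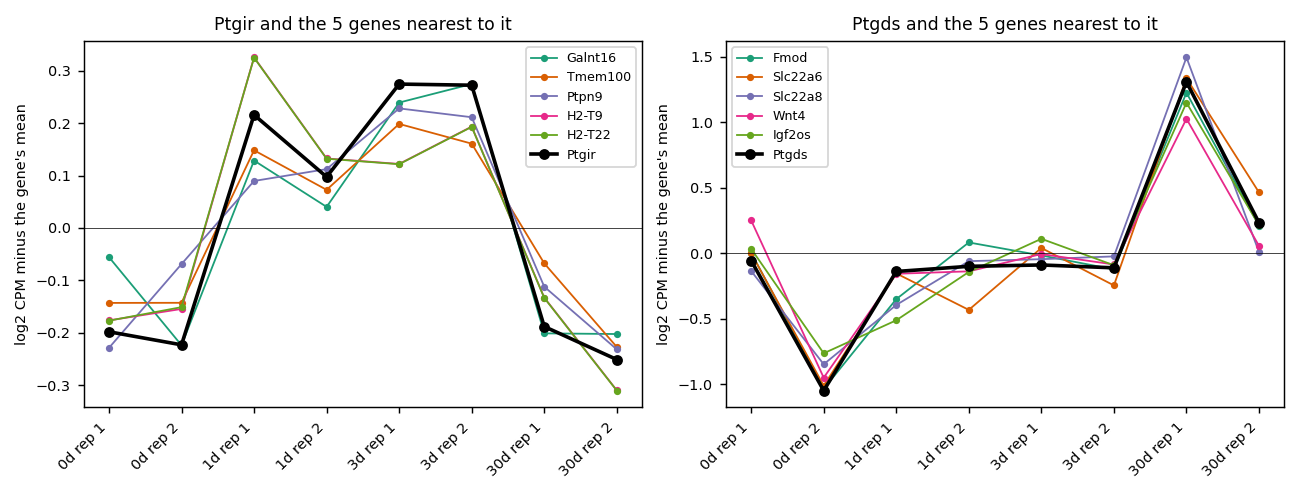
log2 CPM minus the gene's mean over the 8 libraries, for Ptgir (left, black) and Ptgds (right, black) and the 5 genes nearest to each (colours), by library. The left group is high in the 1d and 3d libraries; the right group is lowest in the second 0d library and highest in the first 30d library.

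The 4 prostaglandin E2 receptors did not pass the test in any comparison. Ptger1, which couples to calcium signalling, had 40.6 and 40.2 CPM at 0d, 40.8 and 42.5 CPM at 1d, 42.7 and 41.5 CPM at 3d, and 39.4 and 38.7 CPM at 30d. Its 4 libraries of 1d and 3d lay above the other 4, as for Ptgir, but by far less (40.8 against 40.6 CPM where nearest). The share of all genes with this separation was not counted, so that no likeness to Ptgir is read from it. The log2FC was 0.04 (SE 0.06, 95% interval -0.09 to 0.18) for 1d against 0d and 0.06 (SE 0.06, -0.07 to 0.19) for 3d against 0d. The level of Ptger1 is uncertain, because the counting did not use strand and not all of its exon bases are its own.

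Ptger3, a Gi-coupled receptor, had 18.9 and 26.6 CPM at 0d, 23.1 CPM in both 1d libraries, 21.1 and 22.9 CPM at 3d, and 23.5 and 18.3 CPM at 30d. The 0d libraries spanned all the others except the second 30d library, which was just below them. Its log2FC lay between -0.12 and 0.02 in the 5 comparisons, with an SE of 0.16 in each.

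Ptger4, a Gs-coupled receptor that is known for sensitising nociceptors, had 16.6 and 18.5 CPM at 0d, 16.3 and 15.6 CPM at 1d, 16.4 and 17.8 CPM at 3d, and 15.0 and 13.2 CPM at 30d. Both 30d libraries were below all the others. Its log2FC was -0.32 (SE 0.11, 95% interval -0.54 to -0.09) for 30d against 0d, which did not pass (adjusted p = 0.255, unadjusted p = 0.00941, edgeR). Against 3d it was -0.28 (SE 0.11, adjusted p = 0.268, edgeR).

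Ptger2, the other Gs-coupled prostaglandin E2 receptor, was scarce, with 1.57 and 1.60 CPM at 0d, 1.88 and 0.958 CPM at 1d, 1.72 and 1.96 CPM at 3d, and 2.07 and 1.01 CPM at 30d. The 2 libraries were far apart at 1d and at 30d and close at 0d and 3d, and both 3d libraries were above both 0d libraries. The interval for 3d against 0d, -0.59 to 1.02 on the log2 scale, holds the value of Ptgir, so that a shift of that size was not detectable for Ptger2.

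**Figure D4:**
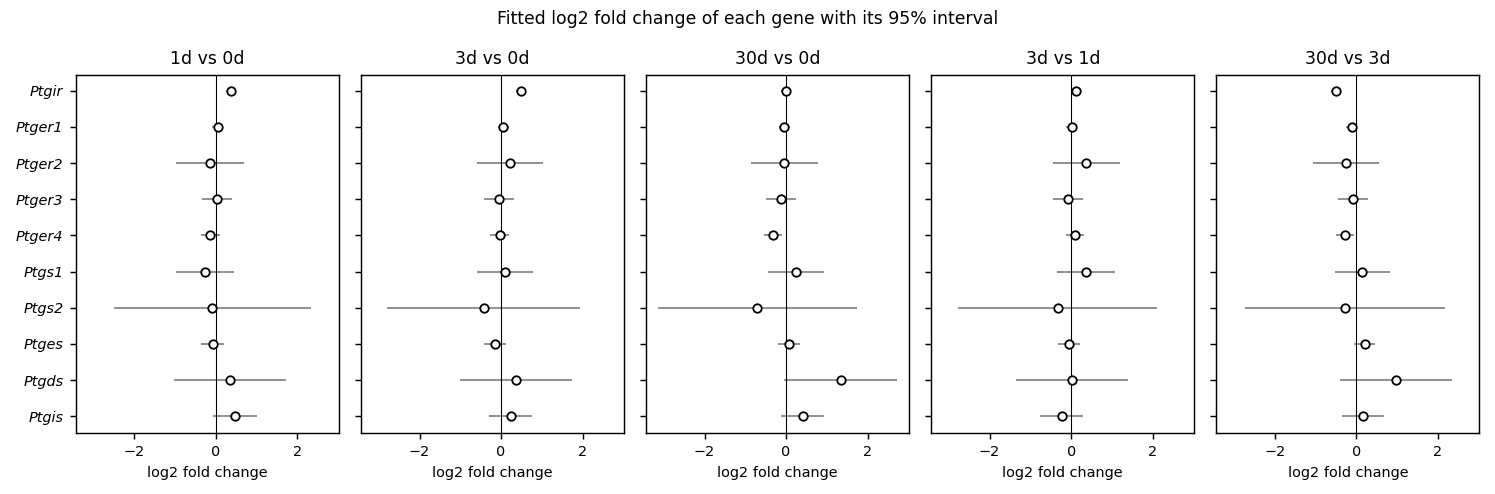
Fitted log2 fold change (points) with its 95% interval (lines) for each gene in the 5 comparisons, the first-named time point over the second. Intervals of Ptger1 are within 0.25 of 0 and those of Ptgs2 reach beyond 2 on both sides in 3 of the 5 comparisons.

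Among the synthases, none was called in any comparison. The cyclooxygenases were low. Ptgs1 had 2.80 and 2.12 CPM at 0d, 2.29 and 1.76 CPM at 1d, 3.05 and 2.19 CPM at 3d, and 3.89 and 1.94 CPM at 30d. The 30d libraries held the highest value and the second lowest, and log2FC lay between -0.28 and 0.37 with an SE of 0.32 to 0.33.

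Ptgs2, the cyclooxygenase known for its induction at inflamed sites, had 15 and 9 counts at 0d, 8 and 10 counts at 1d, 9 and 13 counts at 3d, and 16 and 0 counts at 30d. In CPM these were 0.284 and 0.147, 0.173 and 0.228, 0.138 and 0.178, and 0.270 and 0. A count of 0 allows up to 3 counts, or 0.0428 CPM, in that library, counting error only. No rise of Ptgs2 was detectable at this depth: the log2FC for 1d against 0d was -0.09 (SE 1.13, 95% interval -2.51 to 2.33), and the interval holds changes of several fold both ways.

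Ptges, the inducible terminal synthase of prostaglandin E2, had 16.2 and 13.5 CPM at 0d, 13.3 and 14.8 CPM at 1d, 13.9 and 13 CPM at 3d, and 13.9 and 17.1 CPM at 30d. The 0d libraries overlapped those of each later time point. Its log2FC was -0.08 (SE 0.13, -0.36 to 0.19) for 1d against 0d and -0.14 (SE 0.13, -0.41 to 0.13) for 3d against 0d.

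Ptgis, which makes the ligand of Ptgir, had 4.01 and 3.31 CPM at 0d, 4.85 and 5.24 CPM at 1d, 4.63 and 3.97 CPM at 3d, and 6.25 and 3.46 CPM at 30d. Both 1d libraries were above both 0d libraries. The log2FC was 0.47 (SE 0.25, 95% interval -0.07 to 1.00) for 1d against 0d and did not pass (adjusted p = 1.00, edgeR). For 3d against 0d it was 0.23 (SE 0.25, -0.29 to 0.76). The point estimate at 1d was thus larger than that of Ptgir, with an SE over 4 times as large.

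Ptgds (chromosome 2, 25466712 to 25469749, minus strand, 805 exon bases) had the widest range of the 9 members with counts in every library, 5.13-fold from lowest to highest. It had 342 and 172 CPM at 0d, 323 and 332 CPM at 1d, 334 and 329 CPM at 3d, and 882 and 418 CPM at 30d. The 1d and 3d libraries were alike, and both 30d libraries were above all others. The log2FC for 30d against 0d was 1.34 (SE 0.51, 95% interval -0.05 to 2.73), which did not pass (adjusted p = 0.418, edgeR). Without the first 30d library it was 0.70, and without the first 0d library 1.92. The second 0d library was the low one: log2FC was 0.35 for 1d and 0.37 for 3d against 0d. Without that library these were -0.06 and -0.04. For 30d against 3d it was 0.97 (SE 0.50, adjusted p = 0.508, edgeR), and 0.33 without the first 30d library. Ptgds held 97.1 to 99.2% of the summed RPKM of the 5 synthases.

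Ptgds is also a known product of the leptomeninges, the thin membranes around brain, spinal cord and nerve roots. The summed level of 7 leptomeningeal markers was 385 and 262 CPM at 0d, 309 and 343 CPM at 1d, 403 and 404 CPM at 3d, and 432 and 351 CPM at 30d. As for Ptgds, the second 0d library was the lowest and the first 30d library the highest. Of the 7 markers, 4 were highest in that 30d library and 5 were lowest in that 0d library, and none was at 0. Other lists were highest in that 30d library as well: all 5 red blood cell markers and all 4 neutrophil markers with counts. So were all 4 platelet markers and 4 of 8 macrophage markers. Of the red blood cell markers, Hba-a1 and Hba-a2 had the same level in every library. The part of any of these cells in the level of Ptgds was not tested.

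The 5 genes nearest to Ptgds over the 8 libraries were Fmod, Slc22a6, Slc22a8, Wnt4 and Igf2os, at root mean square differences of 0.11, 0.16, 0.16, 0.17 and 0.20 log2 units against a median of 0.62 over the genes tested. Slc22a6, an organic anion transporter gene, is one of the 7 markers. Fmod, which encodes the matrix protein fibromodulin, had 14 and 6.81 CPM at 0d, 11 and 14.8 CPM at 1d, 13.8 and 12.8 CPM at 3d, and 32.7 and 16.2 CPM at 30d. Slc22a8, another organic anion transporter gene, had 3.87 and 2.36 CPM at 0d and 12 and 4.28 CPM at 30d. All 5 were lowest in the second 0d library and highest in the first 30d library. They were picked for likeness to Ptgds over these same libraries, so that this is a description.

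The first 30d library held the highest level of 4 members (Ptger2, Ptgs1, Ptgds, Ptgis), and the second 30d library the lowest of 5 (Ptgir, Ptger1, Ptger3, Ptger4, Ptgs2). For the 9 members other than Ptgir, the median log2FC was -0.08 for 1d against 0d, 0.06 for 3d against 0d and -0.04 for 30d against 0d. The medians over all 17328 genes were -0.00 in each. The smallest adjusted p among these 9 was 0.255 (edgeR, Ptger4, 30d against 0d).

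Members whose 2 libraries of each group did not overlap numbered 3 or 4 in each comparison, to be read against the share of all genes that did so. For 1d against 0d they were 4 of 10 (Ptgir, Ptger1 and Ptgis higher, Ptger4 lower), where 31.9% of all genes did so. For 3d against 0d they were 3 of 10 (Ptgir, Ptger1 and Ptger2 higher; 39.5% of all genes), and for 30d against 0d 3 of 10 (Ptgds higher, Ptger1 and Ptger4 lower; 39.6%). For 3d against 1d they were 4 of 10 (Ptgir and Ptger4 higher, Ptger3 and Ptgis lower; 37.6%), and for 30d against 3d 4 of 10 (Ptgds higher, Ptgir, Ptger1 and Ptger4 lower; 46.4%).

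The wider pathway was read from 6 lists with 79 genes in the table, 73 of them tested. None was called in any of the 5 comparisons or among the 4 time points (edgeR). At an unadjusted p under 0.05 there were 2 for 1d against 0d, 6 for 3d against 0d, 13 for 30d against 0d, 3 for 3d against 1d and 10 for 30d against 3d. These are 2.74, 8.22, 17.8, 4.11 and 13.7% of the 73, where all genes gave 4.47, 5.94, 12.3, 4.24 and 13%. With DESeq2, Pde4a, a cAMP phosphodiesterase gene, was called for 30d against 3d and Rapgef3 among the 4 time points, and with limma-voom none was.

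Upstream of the members, 21 genes were listed under the release of arachidonic acid. The list is broad, and release by each of its genes was not tested. Pla2g4a, the cytosolic phospholipase, had 1.45 to 3.5 CPM in the 8 libraries and a log2FC of 0.07 (SE 0.36) for 1d against 0d and 0.24 (SE 0.35) for 3d against 0d. Its lowest and highest libraries were 0d and 30d libraries.

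Of the other synthases, Ptges3, a prostaglandin E synthase and Hsp90 cochaperone, had 119 to 140 CPM, and Ptges2, the membrane-associated one, 22.2 to 28.9 CPM. Ptges3 had a log2FC of -0.15 (SE 0.05, adjusted p = 0.243, edgeR) for 30d against 0d, and Ptges2 lay between -0.08 and 0.00 in the 5 comparisons. The haematopoietic prostaglandin D synthase Hpgds had 1.06 to 1.94 CPM and the thromboxane synthase Tbxas1 0.636 to 1.84 CPM.

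Of the other receptors, Ptgdr, a receptor of prostaglandin D2, had 38.3 to 43.1 CPM and log2FC between -0.08 and 0.06. The other such receptor, Ptgdr2, was scarce, with 0.202 and 0.129 CPM at 30d and 0.388 to 0.670 CPM in the other libraries. It did not pass for 30d against 0d (adjusted p = 0.330, edgeR), and is named here after its values were seen. Ptgfr, the prostaglandin F receptor, had 35.3 and 37.3 CPM at 0d, 35.2 and 35.6 CPM at 1d, 30.0 and 30.9 CPM at 3d, and 34.3 and 37.0 CPM at 30d. Both 3d libraries were below all the others, the side opposite to Ptgir. Its log2FC for 3d against 0d was -0.25 (SE 0.07, 95% interval -0.40 to -0.10), which did not pass (adjusted p = 0.310, edgeR). The thromboxane receptor Tbxa2r had 4.30 to 7.54 CPM, and Hpgd, the enzyme that inactivates prostaglandins, 4.29 to 6.73 CPM.

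Below the receptors, 31 signalling genes were listed, among them the G proteins, adenylyl cyclases and protein kinase A subunits through which Ptgir acts. Their median log2FC was -0.00 for 1d against 0d and 0.00 for 3d against 0d. Rapgef3, the cAMP-activated exchange factor Epac1, had 12.5 and 13 CPM at 0d, 12.5 and 12.1 CPM at 1d, 17.1 and 15.5 CPM at 3d, and 15.7 and 15.8 CPM at 30d. All 4 libraries of 3d and 30d were above all 4 of 0d and 1d, a split whose share of all genes was not counted. Its log2FC for 3d against 1d was 0.41 (SE 0.10, adjusted p = 0.225, edgeR). Rapgef3 and Pde4a are named here after their values were seen.

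The leukotriene branch draws on the same arachidonic acid. Its list, which also holds other lipoxygenase genes, had 10 genes, 9 of them tested. The median log2FC of the 9 was -0.00 for 1d, 0.27 for 3d and 0.39 for 30d, each against 0d, and none of the genes was called. For 30d against 0d this was the largest list median of the 6. The neutrophil sum was higher at 3d and 30d than at 0d too, and unlike the list median also at 1d, with 36.6 and 77.4 CPM at 0d, 86.7 and 93.0 CPM at 1d, 116 and 118 CPM at 3d, and 183 and 79.5 CPM at 30d. Alox5ap, the 5-lipoxygenase-activating protein gene, had the smallest adjusted p of the list against 0d at each time point (0.25 at 30d, edgeR). It had 3.72 and 3.68 CPM at 0d, and its 6 later libraries, from 4.51 to 6.65 CPM, were all above these. The 30d libraries were far apart for some of these genes: Alox5, the 5-lipoxygenase gene, had 2.58 CPM in the first and 0.943 CPM in the second, and Ltb4r1, a leukotriene B4 receptor gene, 1.52 and 0.400 CPM. For others they were closer or in the other order, as for Lta4h, the leukotriene A4 hydrolase gene, with 44.9 and 42.3 CPM, and Cysltr2, a cysteinyl leukotriene receptor gene, with 5.24 and 6.78 CPM. These 5 genes are named here after their values were seen. The part of neutrophils or of that library in the medians was not tested.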

How the data were processed

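The authors made the files by read trimming (cutadapt 2.10), alignment to mm10 (STAR 2.7.5a) and counting of read pairs per gene over exons with featureCounts 2.0.1, unstranded and with a pair counted for each gene it overlapped. The deposited values are these raw counts. The members and gene lists were chosen with earlier results of these data known.

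Genes were filtered with filterByExpr, scaled by TMM (factors from 0.993 to 1.01) and tested in edgeR 4.0.16 (R 4.3.3) by a quasi-likelihood fit over all 8 libraries, with time point as the only term and Benjamini-Hochberg adjustment over the 17328 genes tested. The common biological coefficient of variation was 8.85%. CPM and RPKM, the latter by the deposited exon length, were computed on the TMM-scaled library totals. Replicate libraries differed beyond counting noise (chi-square over its degrees of freedom from 7.29 to 25.8) and were kept as separate samples. The edgeR fit was tested on simulated data.

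Named genes were all members, 9 pathway genes fixed by name, any pathway gene called, and the 5 genes nearest to Ptgir and to Ptgds. Alternatives were RLE, upper-quartile and library-total scaling, other filters and thresholds, edgeR's newer method, no robust estimation, a replicate block, the compared groups alone, limma-voom (limma 3.58.1), DESeq2 1.42.0 and leaving out each library. Coordinates are from the deposited table (mm10). Promoter windows are from RefSeq (GRCm38.p6), in which 8 of the 10 members were found. 2 listed genes were not matched.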

Additional observations from a re-analysis of the deposited data

Results flagged for a closer look

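Ptgir is listed because its change from 3d to 30d ran opposite to its change from 0d to 3d, in every library of the groups compared. The log2FC for 30d against 3d was -0.49 (SE 0.06), with 87.2 and 87.1 CPM at 3d and 63.3 and 60.6 CPM at 30d. The gene was chosen with this call and pattern known, so that nothing is read from the listing.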

How the results depend on the processing

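With 2 pools a group, changes of low genes such as Ptgs2 and Ptger2 could not be resolved. Of 250 counts of called members or pathway genes under the alternatives, 231 were within 1.5 times the reported one. Of 944 log2FC of members, 941 kept their side of the threshold, 3 lost it (Ptgir, given in the report) and 0 called values reversed. Scalings moved the median of all genes by at most 0.021 log2 units. Where 0 pathway genes were called, 1 was called with no filter on low counts (30d against 3d; any time point), with the compared groups alone (3d against 0d; 3d against 1d) and with DESeq2 (30d against 3d; any time point), and the cause was not tested. When each library was left out, members called ranged from 0 to 1 for 1d against 0d and for 3d against 0d. Pathway genes called then ranged from 0 to 1 for 3d against 0d, 0 to 5 for 30d against 0d (5 without the second 30d library), 0 to 2 for 30d against 3d and 0 to 2 for any time point. Replicate numbers are shared between groups but deviations of same-numbered libraries correlated only at -0.014 to 0.044. With the replicate block, 1 member was called for 1d against 0d, 1 for 3d against 0d and 1 for 30d against 3d, and 1 pathway gene for 30d against 3d.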
